A study of Homo sapiens with 28 samples.

Results

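The 37 genes described here encode the actin cytoskeleton and the focal adhesions that anchor it. They were taken by gene name from a list of actins, actin crosslinkers, non-muscle myosin II chains, calponin family proteins and caldesmon, core focal adhesion proteins, LIM-domain proteins of adhesions and stress fibres, kinases and a formin that act on actin, actin turnover factors and 2 genes that enter the counts over the list but are not described. All 37 were found among the 58735 genes of the count table, and all 37 passed the filter on low counts that left 17191 genes for testing. The RNA came from MDA-MB-231 cells, an established line from a human breast tumour of the triple-negative class with mesenchymal features, grown in medium with puromycin. One derivative overexpressed tropomyosin 2.1 (Tpm2.1, encoded by TPM2), an actin filament-binding protein, and the other carried an empty vector (EV). Poly(A) RNA was sequenced from 14 groups of 2 libraries each: suspended Tpm2.1 cells in the apoptotic and in the non-apoptotic fraction at 5 hours and at 1, 2 and 4 days, attached Tpm2.1 cells, suspended EV cells at the same 4 times, and attached EV cells. Attached cells stood for 6 hours on tissue culture plates and suspended cells were held in ultra-low attachment plates.

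Some comparisons carry a second difference between their groups. Suspended Tpm2.1 cells were divided with Annexin V beads, and no such separation is stated for EV cells or attached cells. Suspension and bead separation therefore cannot be told apart in the Tpm2.1 line, nor can line and separation between suspended lines. Attached cells were sampled at 6 hours alone. At 1, 2 and 4 days, and in means over the 4 times, suspension and time in culture cannot be told apart in either line. The labels give a single line with Tpm2.1 and a single EV line, and what else sets the lines apart cannot be told apart from Tpm2.1. The titles call the libraries biological replicates without saying how cultures were set apart, so p-values measure the spread between these libraries, which may be technical. In bulk RNA, fewer cells of a type and less RNA per cell cannot be told apart.

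Actin filaments bundled by alpha-actinin and pulled by non-muscle myosin II form stress fibres, which end at focal adhesions, where talin, kindlin, vinculin, paxillin and zyxin connect them to integrins bound to the matrix. Formins and the ROCK kinases help to build and tighten them. The pool of unpolymerised actin feeds back on transcription: it holds the coactivators MRTF-A and MRTF-B of the serum response factor SRF, whose targets include many genes of the cytoskeleton itself. Cells kept off a matrix cannot form focal adhesions, and the death that follows in many epithelial cells is called anoikis.

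TPM2 was at 2461 to 7861 CPM (each gene's counts relative to library totals scaled by the trimmed mean of M-values, TMM) in the 18 Tpm2.1 libraries and at 22.7 to 46.1 CPM in the 10 EV libraries, as the labels say. VIM (743 to 1530 CPM) and CD44 (228 to 862 CPM) were high in every library, as known for this line, and CDH1 never passed 7 counts. KRT8 (41.3 to 515 CPM) and KRT18 (102 to 265 CPM) were present. Of the other genes listed as low in this line, PGR had at most 2 and ESR1 at most 28 counts. EPCAM was at 3.83 to 10.5 CPM, but ERBB2 was at 13.9 to 104 CPM. Of 7 markers of leukocytes, endothelial cells, fibroblasts and adipocytes, ADIPOQ had 0 counts in every library, and CD3E, COL1A2, PTPRC and CDH5 had at most 1, 2, 3 and 7. PECAM1 had 5 to 139 counts and COL1A1 313 to 1571 counts (19.2 to 104 CPM). Totals per library ran from 13043529 to 27416335 counts. The apoptotic libraries of 4 days stood apart: they held counts for 18183 and 18676 genes, against 21275 to 24530 in the other 26 libraries. Mitochondrial mRNA took 5.86 to 6.40% of their counts, against 1.25 to 1.55% in the non-apoptotic fraction of that time, and MALAT1 and NEAT1 took 0.114 to 0.123%, against 0.0509 to 0.0594%.

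Together the 37 genes took 3.02% ± 0.016 of all counts in attached Tpm2.1 cells and 3.0% ± 0.0032 in attached EV cells (SD, n = 2 each). In suspension the share was lower at every time. It was 2.15% ± 0.018, 1.91% ± 0.014, 1.93% ± 0.045 and 1.73% ± 0.021 in non-apoptotic Tpm2.1 cells at the 4 times, from 5 hours to 4 days, and 2.03% ± 0.042, 1.86% ± 0.014, 1.94% ± 0.003 and 2.02% ± 0.010 in EV cells (SD, n = 2 each). Apoptotic Tpm2.1 cells held 2.08% ± 0.11, 1.75% ± 0.036, 1.83% ± 0.031 and 1.17% ± 0.017, so their 4-day libraries had the lowest share of any group. ACTB and ACTG1, the cytoplasmic actins, alone made up 1.16% ± 0.0094 in attached Tpm2.1 cells and 1.18% ± 0.0011 in attached EV cells. Per length, in the deposited FPKM (fragments per kilobase of gene and per library size), ACTB had the 4th and ACTG1 the 7th highest mean level of all genes in attached EV cells, at 2082 and 1835 FPKM. ACTA2, the smooth muscle actin, was at the other end with 0.454 FPKM.

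**Figure D1:**
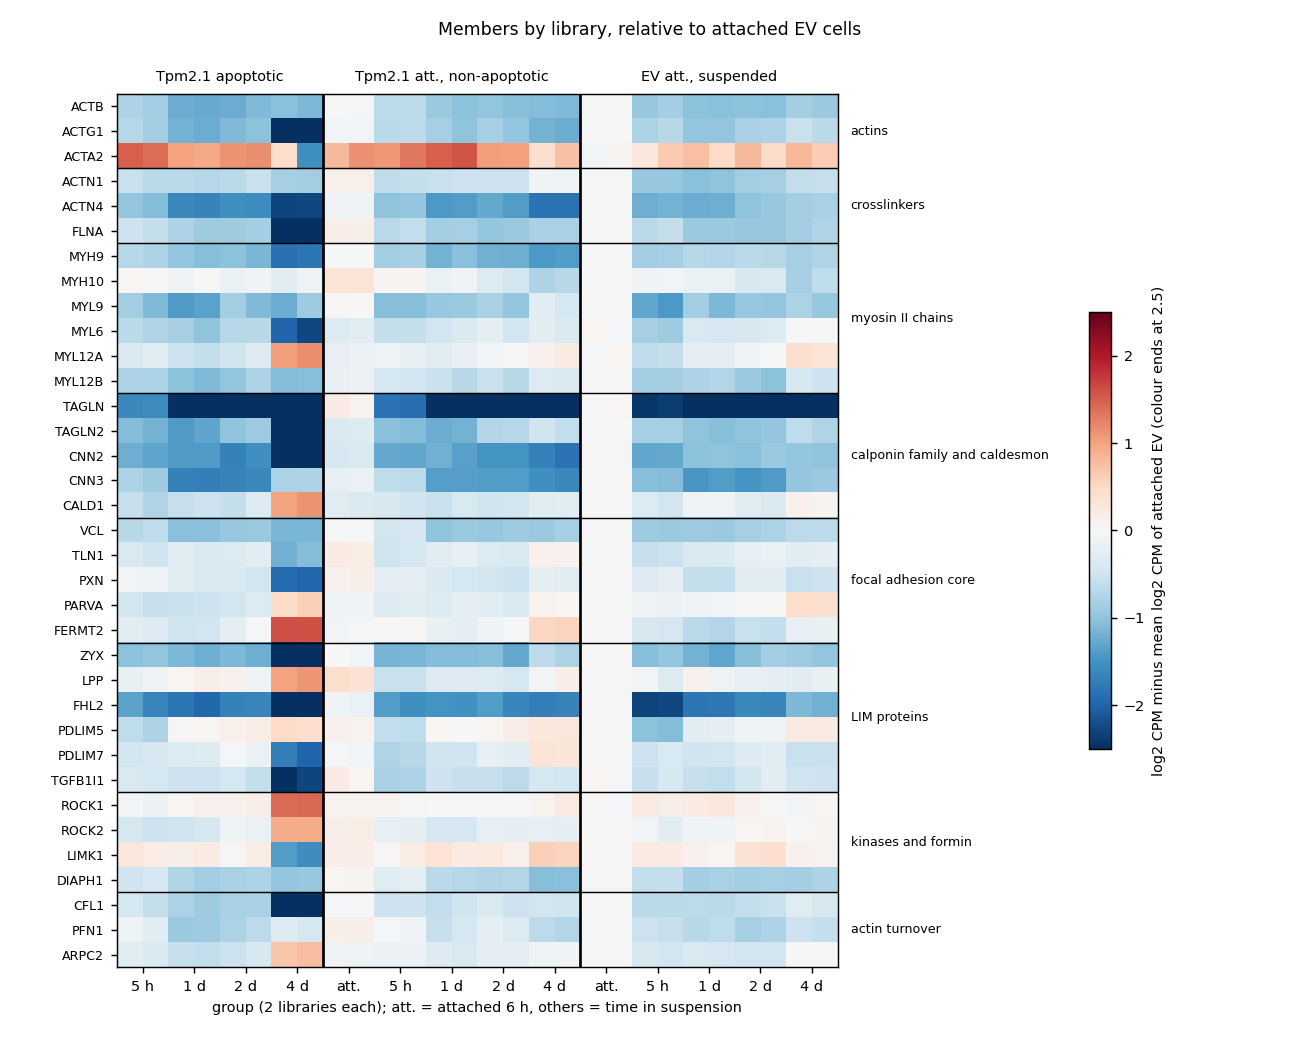
Level of each of the 35 genes described in each of the 28 libraries, as log2 CPM minus the gene's mean log2 CPM in attached EV cells; blue is lower and red higher, and the colour ends at 2.5 in either direction. Most rows are blue in all 3 sets of suspended libraries, TAGLN most of all, and the last pair of apoptotic columns (4 days) shows a pattern of its own, with red rows such as FERMT2 and ROCK1 beside dark blue ones such as FLNA and CFL1.

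Loss of attachment was accompanied by lower RNA of most of these genes in both lines. In non-apoptotic Tpm2.1 cells, taking the mean of the 4 times against attached Tpm2.1 cells, 28 of the 37 genes fell and 4 rose at an adjusted p under 0.05 (edgeR quasi-likelihood test, Benjamini-Hochberg over all 17191 genes), where 61.4% of all genes tested passed, 30.6% as lower and 30.8% as higher. In EV cells 31 fell and 4 rose, where 66.3% of all genes passed, 32.2% as lower and 34.2% as higher. The median log2 fold change of the 37 was -0.54 in non-apoptotic Tpm2.1 cells and -0.49 in EV cells, beside 0.03 and 0.06 over all genes tested. In 27 genes the fall passed in both lines, and the share of all genes with a fall in both was not counted. Other measures moved with this comparison. The nuclear RNAs MALAT1 and NEAT1 took 0.0509 to 0.0749% of the counts in non-apoptotic Tpm2.1 cells, against 0.0258 to 0.0265% in attached Tpm2.1 cells, and 0.046 to 0.151% in suspended EV cells, against 0.016 to 0.0164% in attached EV cells. Mitochondrial mRNA took 1.22 to 1.62% in non-apoptotic Tpm2.1 cells, against 2.14 to 2.18% attached, and 1.12 to 4.36% in suspended EV cells, against 1.59 to 1.63% attached. The summed level of the 7 markers of other cell types was 41.0 to 85.7 CPM in non-apoptotic Tpm2.1 cells, against 21.7 to 23.5 CPM attached, and 29.2 to 107 CPM in suspended EV cells, against 19.6 to 20.3 CPM attached. Totals per library were 14976293 to 25481208 counts in non-apoptotic Tpm2.1 cells and 13671309 to 20278090 counts in suspended EV cells. Attached libraries of both lines had 23561107 to 27416335 counts. Their library names also have another form than those of the suspended cells, without a stated reason. The part of these measures in the result was not tested.

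Every non-apoptotic Tpm2.1 library lay below both attached Tpm2.1 libraries for 25 of the 37 genes, and above both for 0. The same held below for 21.6% and above for 20.3% of all genes tested. In EV cells all 8 suspended libraries lay below both attached ones for 25 genes as well, beside 23.4% of all genes. LIMK1 and ACTA2 were among the 3 that lay above, beside 22.3% of all genes.

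**Figure D2:**
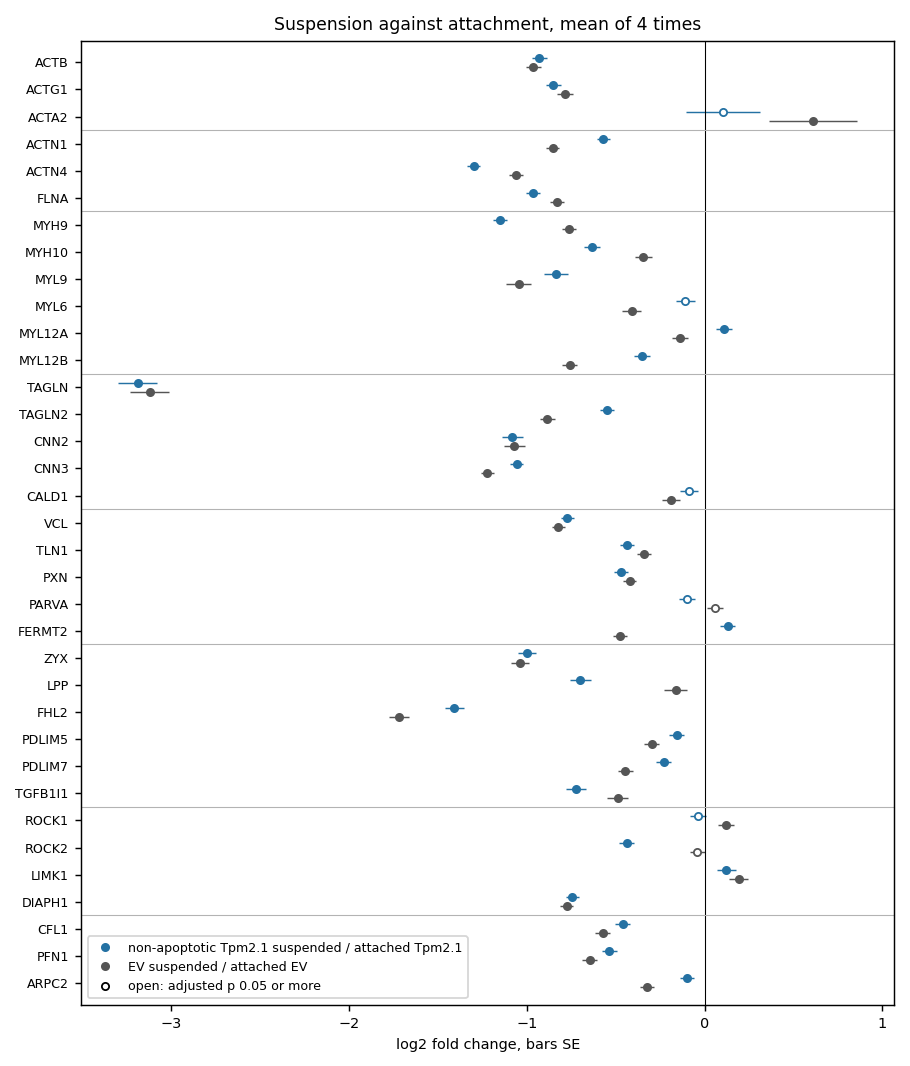
Log2 fold change of each of the 35 genes described on suspension, as the mean of 4 times, in non-apoptotic Tpm2.1 cells against attached Tpm2.1 cells (blue) and in suspended EV cells against attached EV cells (grey), with standard errors; open circles did not pass and lines part the roles. Most points of both lines lie left of 0, TAGLN is farthest at -3.19 and -3.12, and the point farthest right is ACTA2 in EV cells at 0.61.

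The actins differed from each other. ACTB was at 4616, 4587, 3832, 3546, 3673, 3463, 3432 and 3381 CPM in non-apoptotic Tpm2.1 cells (2 libraries each at 5 hours, 1, 2 and 4 days), against 7306 and 7125 CPM in attached Tpm2.1 cells. In suspended EV cells it was at 3770, 4023, 3558, 3535, 3549, 3517, 4032 and 3819 CPM, against 7297 and 7208 CPM in attached EV cells. No suspended library came near an attached one, and the log2 fold changes were -0.93 ± 0.041 in Tpm2.1 and -0.96 ± 0.041 in EV cells (SE; adjusted p = 1.39e-21 and 4.01e-22, edgeR). ACTG1, the other cytoplasmic actin, fell by 0.85 ± 0.044 in Tpm2.1 and by 0.79 ± 0.044 in EV cells on the log2 scale. ACTA2 had 5 to 86 counts per library. Its rise of 0.61 ± 0.25 in EV cells (edgeR adjusted p = 0.0321) did not hold with DESeq2 (adjusted p = 0.0551) or when either attached EV library was left out (0.179 and 0.101). ACTA2 lies across STAMBPL1 on the other strand, which had 2160% of its counts, and no source used here states whether counting used strand, so its values are uncertain.

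All 3 crosslinkers fell in both lines. ACTN4, alpha-actinin-4, which bundles filaments, was at 757, 776, 563, 578, 625, 577, 421 and 421 CPM in non-apoptotic Tpm2.1 cells, against 1425 and 1415 CPM in attached Tpm2.1 cells. In EV cells it was at 647, 666, 639, 653, 755, 784, 842 and 865 CPM in suspension, against 1525 and 1505 CPM in attached cells. ACTN4 was thus lowest at 4 days in Tpm2.1 cells, whereas EV cells at 4 days were above their own 5-hour libraries. FLNA, filamin A, which joins filaments at angles and binds integrins, fell by 0.96 ± 0.038 in Tpm2.1 and by 0.83 ± 0.038 in EV cells (log2, SE). ACTN1, the alpha-actinin of stress fibres and adhesions, fell by 0.57 ± 0.037 in Tpm2.1 and by 0.85 ± 0.036 in EV cells.

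Of the 6 myosin II chains, 4 fell in non-apoptotic Tpm2.1 cells and 6 in EV cells. MYH9, the heavy chain of myosin IIA, was at 1344, 1370, 1070, 1177, 1054, 1050, 895 and 924 CPM in non-apoptotic Tpm2.1 cells, against 2448 and 2429 CPM attached. In EV cells it held between 1325 and 1528 CPM in suspension, against 2452 and 2418 CPM attached. From 1 day on the Tpm2.1 libraries lay below the EV libraries of the same time. MYL9, the regulatory light chain of contractile cells, fell by 0.83 ± 0.068 in Tpm2.1 and by 1.05 ± 0.070 in EV cells. MYL12A, a near relative of MYL9 and MYL12B, went opposite ways on average, at 0.11 ± 0.046 in Tpm2.1 and -0.14 ± 0.046 in EV cells. Neither call was firm: without the scaling factor the EV value was 0.01, without attached EV replicate 2 it was -0.09 (edgeR adjusted p = 0.233), and without 4 days the Tpm2.1 value was 0.03 (adjusted p = 0.587). MYL6, the essential light chain, lies against SMARCC2 and MYL6B, with 33.5% and 10.5% of its counts, and is less certain for that.

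The calponin family held the deepest fall. TAGLN, transgelin or SM22 (ENSG00000149591, chr11:117199321-117204782 on hg38, plus strand), is an actin-bundling protein and a classic SRF target. It was at 9.32, 9.03, 3.41, 3.40, 2.21, 2.73, 3.56 and 3.67 CPM in non-apoptotic Tpm2.1 cells, against 38.6 and 35.8 CPM in attached Tpm2.1 cells. In EV cells it was at 6.27, 6.47, 3.64, 4.00, 4.15, 3.37, 2.36 and 2.48 CPM in suspension, against 33.0 and 34.3 CPM attached. It was 9.11-fold lower in Tpm2.1 and 8.70-fold lower in EV suspension, where libraries held 44 to 234 and 35 to 101 of its counts. TAGLN shares 446 bases with PCSK7 on the other strand, which had 249% of its counts and a log2 fold change of the other sign (0.65 in EV cells); the part of PCSK7 reads was not tested. CNN3, acidic calponin, fell by 1.06 ± 0.036 in Tpm2.1 and by 1.22 ± 0.036 in EV cells, and CNN2 by 1.08 ± 0.060 and 1.07 ± 0.059. CALD1, caldesmon, which restrains myosin on actin, was at -0.09 ± 0.051 in Tpm2.1 cells (edgeR adjusted p = 0.141) and fell by 0.19 ± 0.050 in EV cells.

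Among the core focal adhesion genes the fall was smaller. VCL, vinculin, which reinforces adhesions under tension, was at 331 to 499 CPM in non-apoptotic Tpm2.1 cells, against 656 and 651 CPM attached, and at 352 to 424 CPM in suspended EV cells, against 659 and 673 CPM attached. The groups did not overlap in either line. TLN1, talin, which activates integrins, fell by 0.44 ± 0.040 and 0.34 ± 0.040, and PXN, the scaffold paxillin, by 0.47 ± 0.038 and 0.42 ± 0.038 in Tpm2.1 and EV cells. PARVA, alpha-parvin of the complex with integrin-linked kinase, did not pass in either mean. It fell at 5 hours and rose at 4 days in both lines. In non-apoptotic Tpm2.1 cells it was at 109 and 110 CPM, then at 144 and 140 CPM, against 124 and 126 CPM attached. In suspended EV cells it was at 124 and 123 CPM, then at 184 and 179 CPM, against 135 and 136 CPM attached. FERMT2, kindlin-2, the partner of talin in integrin activation, went opposite ways, with 188 to 326 CPM in non-apoptotic Tpm2.1 cells, against 212 and 217 CPM attached, and 135 to 195 CPM in suspended EV cells, against 226 and 221 CPM attached. Its rise of 0.13 ± 0.041 in Tpm2.1 cells rested on 4 days: without that time the mean was -0.02 (edgeR adjusted p = 0.66), and without attached Tpm2.1 replicate 1 the rise did not pass (0.11, adjusted p = 0.102). In EV cells it fell by 0.48 ± 0.040.

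As the mean of 4 times, all 6 LIM-domain genes fell in both lines. At 4 days alone, 2 rose and 4 fell in non-apoptotic Tpm2.1 cells, and 1 rose and 5 fell in EV cells. PDLIM5 had means of -0.16 in Tpm2.1 and -0.30 in EV cells, and suspended and attached libraries overlapped in both lines. Its Tpm2.1 call was lost with total counts in place of TMM scaling (edgeR adjusted p = 0.19). PDLIM7 had means of -0.23 and -0.45, and its Tpm2.1 call was lost with a GC trend removed (0.225). FHL2 (ENSG00000115641, chr2:105357712-105438513 on hg38, minus strand) is a LIM-only coactivator that moves between adhesions and the nucleus. It was at 47.4, 43.5, 44.5, 43.9, 47.4, 40.2, 38.3 and 39.3 CPM in non-apoptotic Tpm2.1 cells, against 117 and 112 CPM attached. In EV cells it was at 25.2, 25.7, 35.6, 36.4, 41.2, 40.0, 57.9 and 54.4 CPM in suspension, against 128 and 122 CPM attached. It fell by 1.41 ± 0.054 in Tpm2.1 and by 1.72 ± 0.055 in EV cells on the log2 scale. The EV libraries were lowest at 5 hours and highest of the suspended ones at 4 days, while the Tpm2.1 libraries stayed within a narrow band. ZYX, zyxin, which repairs stress fibres under strain, fell by 1.00 ± 0.051 and 1.04 ± 0.052, and TGFB1I1, the paxillin relative Hic-5, by 0.72 ± 0.057 and 0.49 ± 0.059. LPP, a zyxin relative, fell by 0.70 ± 0.060 in Tpm2.1 but by 0.16 ± 0.063 in EV cells, where 4 of 10 fits without 1 library lost the call, among them those without either attached EV library.

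The 3 kinases and the formin did not move as one. DIAPH1, a formin that elongates filaments, fell by 0.74 ± 0.037 in Tpm2.1 and by 0.78 ± 0.037 in EV cells. LIMK1, the kinase that inhibits cofilin, rose by 0.19 ± 0.055 in EV cells (edgeR adjusted p = 0.00246), a call lost without attached EV replicate 2 (0.0617) and with a GC trend removed from each library (0.218). It was at 0.12 ± 0.053 in Tpm2.1 cells (edgeR adjusted p = 0.0438), a call lost with DESeq2 (adjusted p = 0.145) and in 7 fits without 1 library, including those without either attached Tpm2.1 library. ROCK2 fell by 0.44 ± 0.043 in Tpm2.1 cells and was at -0.04 ± 0.044 in EV cells. ROCK1, its paralogue, was at -0.04 ± 0.046 in Tpm2.1 cells and rose by 0.12 ± 0.047 in EV cells (edgeR adjusted p = 0.0229). That rise was lost with DESeq2 (adjusted p = 0.133), with a GC trend removed (0.44) and in 6 of 10 fits without 1 library, among them those without attached EV replicate 1 (0.0691) or replicate 2 (0.266). In ROCK1, 9.54% of its sequence windows of 75 bases are shared with the pseudogene ROCK1P1.

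As the mean of 4 times, the 3 actin turnover genes fell in both lines. CFL1, cofilin, which severs old filaments, was at 695 to 822 CPM in non-apoptotic Tpm2.1 cells, against 1040 and 1031 CPM attached, and at 663 to 857 CPM in suspended EV cells, against 1049 and 1077 CPM attached. PFN1, profilin, which feeds monomers to growing ends, fell by 0.54 ± 0.044 in Tpm2.1 and by 0.65 ± 0.044 in EV cells. ARPC2, a subunit of the branching Arp2/3 complex, fell by 0.10 ± 0.039 in Tpm2.1 and by 0.33 ± 0.039 in EV cells; the Tpm2.1 call was lost without attached Tpm2.1 replicate 1 (edgeR adjusted p = 0.213) or replicate 2 (0.07).

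**Figure D3:**
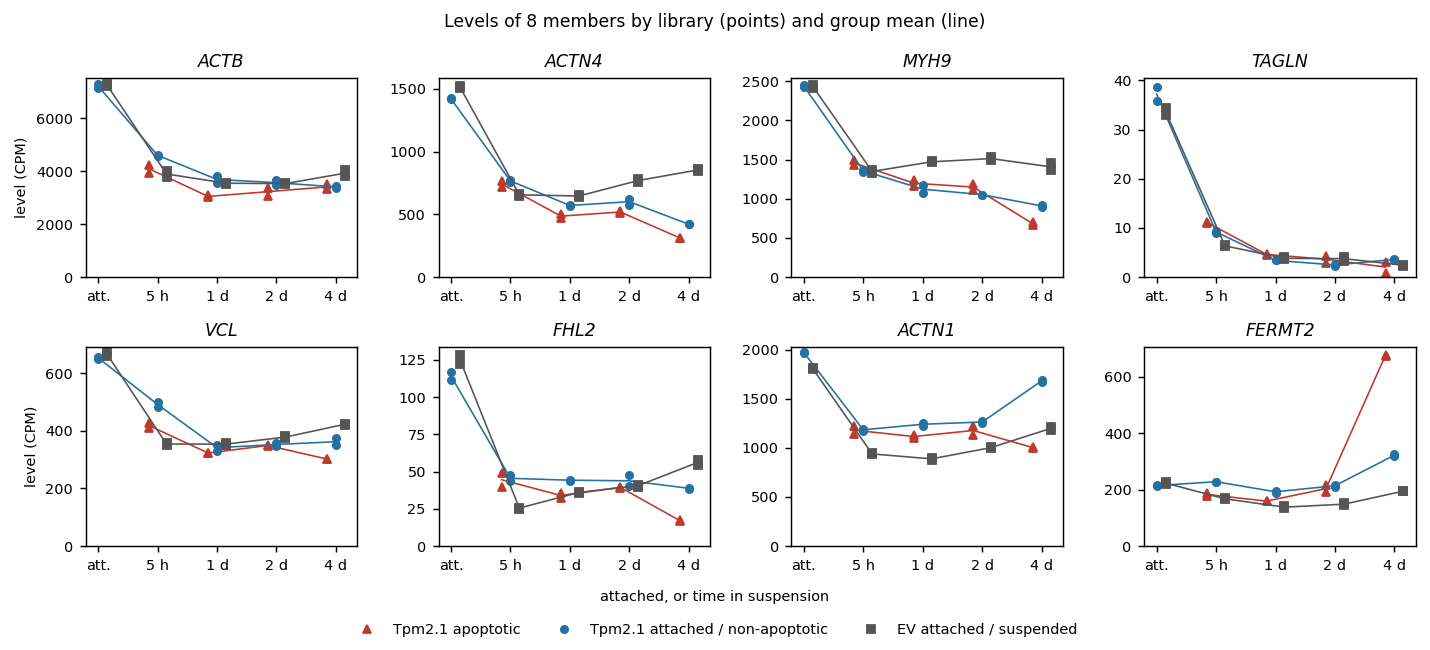
CPM of 8 genes by library (points) with group means (lines) in apoptotic Tpm2.1 (red), attached and non-apoptotic Tpm2.1 (blue) and attached and suspended EV cells (grey); att. is 6 hours attached and the other marks are time in suspension. All but FERMT2 drop between attachment and 5 hours in both lines, and MYH9 parts by line from 1 day on. ACTN4 is higher in non-apoptotic Tpm2.1 than in EV cells at 5 hours and lower from 1 day on. FERMT2 is at 679 and 675 CPM in apoptotic cells at 4 days.

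The falls were present at 5 hours, the first time sampled. The 4 times of a line share its 2 attached libraries, so each time is given by its own count. At 5 hours 30 genes fell and 0 rose in non-apoptotic Tpm2.1 cells, where 45.2% of all genes passed and 24.5% as lower, and 32 fell and 3 rose in EV cells, where 54.7% passed and 28.7% as lower. At 1 day 29 fell and 1 rose in non-apoptotic Tpm2.1 cells (54.8% of all genes passed, 27.0% as lower), and 29 fell and 2 rose in EV cells (63.0%, 30.3% as lower). At 2 days 28 fell and 2 rose in non-apoptotic Tpm2.1 cells (56.8%, 27.6% as lower), and 30 fell and 2 rose in EV cells (64.6%, 31.3% as lower). At 4 days 24 fell and 7 rose in non-apoptotic Tpm2.1 cells, where 62.4% passed and 29.8% as lower, and 26 fell and 5 rose in EV cells, where 59.5% passed and 28% as lower. The count of genes that fell thus stayed within 24 to 32 over all 8 pairs of line and time. Between 5 hours and 4 days in suspension, 17 genes rose and 14 fell in non-apoptotic Tpm2.1 cells, where 54.9% of all genes passed, and 14 rose and 16 fell with total counts in place of TMM scaling. In EV cells 19 rose and 6 fell, where 52.8% passed, and 14 rose and 10 fell with total counts in place of TMM scaling. Mitochondrial mRNA was at 3.10 to 4.36% in EV libraries of 5 hours to 2 days and at 1.12 to 1.28% in those of 4 days, and its part in these changes was not tested.

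Of 76 other genes of the cytoskeleton and adhesions, chosen from general knowledge, 73 could be tested. In non-apoptotic Tpm2.1 cells 46 fell and 12 rose, where 30.6% of all genes passed as lower and 30.8% as higher. In EV cells 47 fell and 14 rose, where 32.2% passed as lower and 34.2% as higher. The medians were -0.26 and -0.29, beside 0.03 and 0.06 over all genes tested. In EV cells the deepest falls were those of PDLIM2 (log2 -2.88 ± 0.17), TNS1 or tensin 1 (-2.30 ± 0.16) and DIAPH3, a formin (-1.94 ± 0.054). The largest rises were those of GSN, the filament-severing gelsolin (1.46 ± 0.094), MRTFB, an SRF coactivator (0.84 ± 0.076), and SVIL, supervillin (0.82 ± 0.050). GSN was at 16.9 to 90.5 CPM in suspended EV cells, with a median of 60.5, against 17.9 and 16.6 CPM attached, so its lowest suspended library overlapped the attached ones.

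Many cytoskeletal genes carry the CArG box, the site of SRF, near their start. RefSeq promoters of GRCh38.p14, 250 bases before to 50 after each start, were matched for 33 of the 37 genes. ACTB, MYL9, PARVA and TAGLN had no entry. Searched on both strands, a CArG box was found for 8 of the 33 genes (24.2%), against 438 of 27305 genes in the whole table (1.60%). Counted per window, since some genes have several starts, it was in 10 of 63 windows (15.9%), against 454 of 35116 (1.29%). The 8 genes were ACTG1, ACTN1, FLNA, CNN2, LPP, FHL2, TGFB1I1 and ROCK2. The list holds well-known SRF targets, so this share describes the list and is no independent result. GGAATG, the core site of the TEAD factors that work with YAP, was in 13 of the 33 genes (39.4%), against 16.7% of all genes, and in 23.8% of their windows, against 14% of all windows. Over all windows of a gene, 4 genes held both motifs, and in FHL2 the motifs lay in different windows. A match is a description of letters only. The promoters of 4 genes that fell in both lines are shown 5′ to 3′ on the gene's strand, with the CArG box in capitals; it starts at -94 from the start of ACTG1 (chr17:81512750-81513049, minus strand), -94 of FLNA (chrX:154374585-154374884, minus strand), -89 of CNN2 (chr19:1026358-1026657, plus strand) and -59 of FHL2 (chr2:105399002-105399301, minus strand).
ACTG1: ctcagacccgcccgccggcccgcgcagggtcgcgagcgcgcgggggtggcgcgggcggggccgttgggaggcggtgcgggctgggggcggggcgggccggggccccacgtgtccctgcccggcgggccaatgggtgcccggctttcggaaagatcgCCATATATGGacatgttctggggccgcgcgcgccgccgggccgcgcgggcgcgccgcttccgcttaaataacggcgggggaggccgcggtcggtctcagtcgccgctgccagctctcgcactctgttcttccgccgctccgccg
FLNA: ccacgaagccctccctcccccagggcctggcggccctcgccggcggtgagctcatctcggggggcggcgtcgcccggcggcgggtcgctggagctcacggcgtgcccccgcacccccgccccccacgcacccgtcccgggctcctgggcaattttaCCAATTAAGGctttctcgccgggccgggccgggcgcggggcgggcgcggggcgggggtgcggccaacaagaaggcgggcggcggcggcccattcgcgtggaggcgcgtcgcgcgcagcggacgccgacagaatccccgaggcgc
CNN2: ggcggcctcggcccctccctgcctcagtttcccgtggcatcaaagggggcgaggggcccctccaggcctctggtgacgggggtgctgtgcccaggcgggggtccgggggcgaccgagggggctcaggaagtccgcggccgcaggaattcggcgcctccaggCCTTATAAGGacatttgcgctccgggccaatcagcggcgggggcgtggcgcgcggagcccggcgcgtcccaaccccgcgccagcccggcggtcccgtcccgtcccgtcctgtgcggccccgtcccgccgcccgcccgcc
FHL2: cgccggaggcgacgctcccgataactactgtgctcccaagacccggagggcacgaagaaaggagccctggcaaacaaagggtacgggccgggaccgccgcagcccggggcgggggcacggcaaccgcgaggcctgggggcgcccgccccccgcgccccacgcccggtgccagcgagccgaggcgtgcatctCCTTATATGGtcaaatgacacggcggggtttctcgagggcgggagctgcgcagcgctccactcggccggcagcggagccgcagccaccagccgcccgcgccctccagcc
The 8 genes with a CArG box had log2 fold changes of -1.41 to -0.44 in non-apoptotic Tpm2.1 cells, with a median of -0.79, and of -1.72 to -0.04 in EV cells, with a median of -0.81. The 25 genes with a promoter but no CArG box had medians of -0.35 in non-apoptotic Tpm2.1 and -0.45 in EV cells, with ranges from -1.30 to 0.40 and from -1.22 to 0.80. The ranges overlapped for most of their length, and the difference was not tested.

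Attached, the lines differed by small amounts in these genes. In attached Tpm2.1 against attached EV cells, 7 genes rose and 7 fell, where 20.5% of all genes passed, 10.4% as higher and 10.1% as lower, and the median log2 fold change was 0.00. The count was 8 or 9 when any of the 4 attached libraries (Tpm2.1 replicates 1 and 2, EV replicates 1 and 2) was left out, and 26 when those 4 libraries were fitted alone. With a trend on GC content removed from each library, 5 rose and 10 fell. MYH10, the heavy chain of myosin IIB, was at 179 and 180 CPM in attached Tpm2.1 cells, against 143 and 141 CPM in attached EV cells (log2 0.34 ± 0.058, edgeR adjusted p = 2.63e-05), less certain for its antisense neighbour NDEL1, which had 59.8% of its counts. LPP was at 96.4 and 90.8 CPM, against 70.6 and 71.4 CPM (0.40 ± 0.077). TAGLN2, the transgelin of non-muscle cells, was at 484 and 492 CPM in attached Tpm2.1, against 614 and 623 CPM in attached EV cells (-0.34 ± 0.053). CNN2 (-0.38 ± 0.078) and CALD1 (-0.34 ± 0.064) fell too. The 2 libraries of each line did not overlap with those of the other for these genes. They were named because they passed in this contrast, so the lack of overlap is no separate support. ACTA2, at 2.34 and 2.95 CPM in attached Tpm2.1 and 1.28 and 1.40 CPM in attached EV cells, had the largest fold (log2 0.98 ± 0.29), lost without attached EV replicate 1 (edgeR adjusted p = 0.104), EV replicate 2 (0.065) or Tpm2.1 replicate 2 (0.148).

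In suspension the lines parted further. Non-apoptotic Tpm2.1 against EV cells, as the mean of 4 times, had 17 genes higher and 11 lower, where 60.5% of all genes passed, 28.6% as higher and 32.0% as lower. With total counts in place of TMM scaling the split was 12 higher and 12 lower. FERMT2 rose by 0.55 ± 0.027 and ACTN1 by 0.41 ± 0.025, while CNN2 fell by 0.39 ± 0.043, MYH9 by 0.38 ± 0.027 and ACTN4 by 0.33 ± 0.025 (log2, SE). Between FERMT2 and ACTN1 came ACTA2, which rose by 0.47 and is uncertain for its few counts and its antisense neighbour. ACTN1 was at 1173 to 1696 CPM in the 8 non-apoptotic Tpm2.1 libraries and at 880 to 1211 CPM in the 8 EV libraries, higher in Tpm2.1 at each time. The direction shifted with time: 20 higher and 7 lower at 5 hours, where 40.9% of all genes passed, 10 and 10 at 1 day (40.0%), 9 and 11 at 2 days (44.4%), and 12 and 14 at 4 days (43.9%). Genes named at a single time were chosen after their values were seen. At 5 hours FHL2 was at 47.4 and 43.5 CPM in non-apoptotic Tpm2.1 cells, against 25.2 and 25.7 CPM in EV cells, and VCL at 484 and 499 CPM, against 356 and 352 CPM. ACTN4 was higher in non-apoptotic Tpm2.1 cells at 5 hours, at 757 and 776 CPM, against 647 and 666 CPM in EV cells. At 4 days ACTN4 was lower, at 421 and 421 CPM, against 842 and 865 CPM (log2 -1.02 ± 0.051). PDLIM7, a LIM protein of stress fibres, was then at 347 and 334 CPM, against 184 and 184 CPM (0.89 ± 0.058). Mitochondrial mRNA at 5 hours was 1.44 to 1.62% in non-apoptotic Tpm2.1 and 3.10 to 3.18% in EV cells, and its part was not tested.

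**Figure D4:**
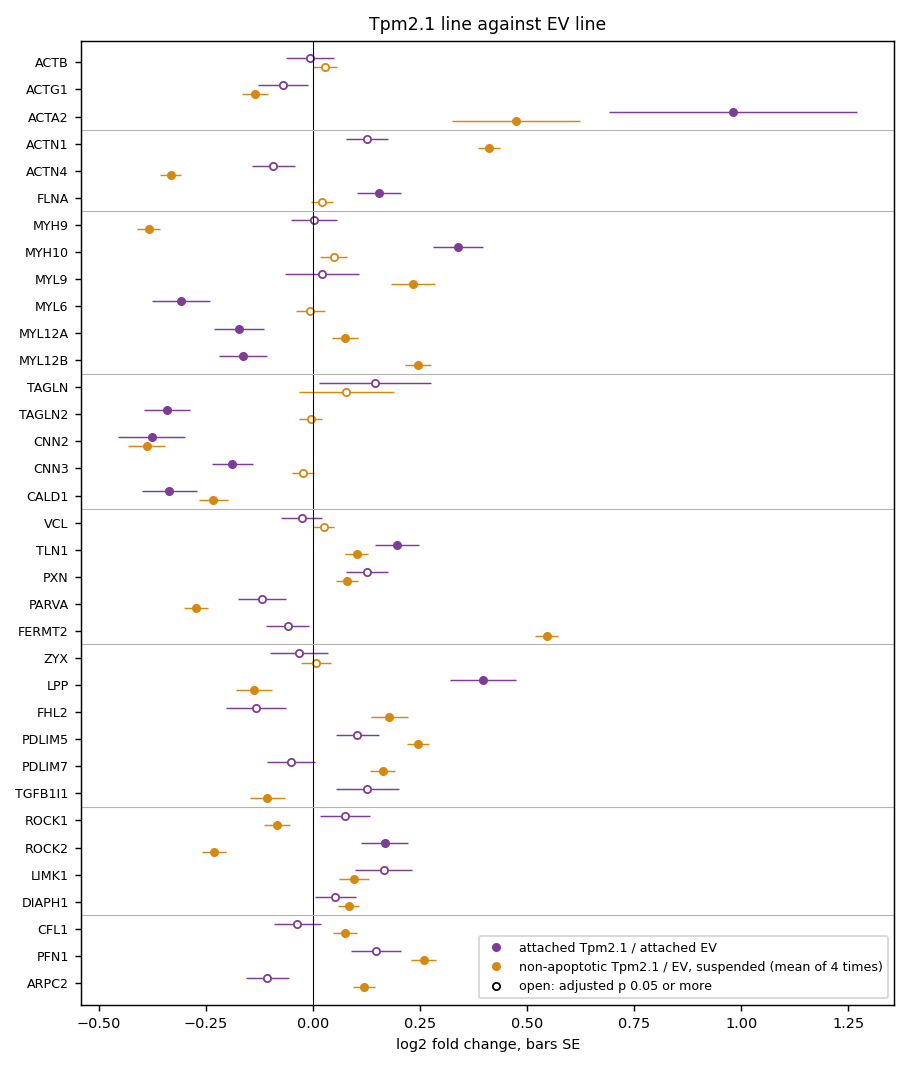
Log2 fold change of each of the 35 genes described in the Tpm2.1 line against the EV line, attached (purple) and in suspension as the mean of 4 times for the non-apoptotic fraction (orange), with standard errors; open circles did not pass. FERMT2 (0.55) and ACTN1 (0.41) lie far right in suspension with open circles attached, and MYH9 (-0.38) and ACTN4 (-0.33) far left, while CNN2 lies at -0.38 attached and -0.39 in suspension. ACTA2, which has few counts, lies at 0.98 attached, the farthest right, and at 0.47 in suspension.

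The response to suspension differed between the lines for 17 genes, 10 with a higher and 7 with a lower value in Tpm2.1 cells. Of all genes, 33.5% passed this test of the difference. The split was 9 higher and 11 lower with total counts in place of TMM scaling, and 15 and 6 with a GC trend removed. FERMT2 had the largest difference (0.61 ± 0.058, edgeR adjusted p = 1.38e-10). MYL12B, a regulatory light chain, fell by 0.35 ± 0.045 in non-apoptotic Tpm2.1 and by 0.76 ± 0.044 in EV cells, a difference of 0.41 ± 0.065. MYH9 (-0.39 ± 0.059), ROCK2 (-0.40 ± 0.062) and LPP (-0.54 ± 0.088) had lower values in Tpm2.1 cells. For ACTB the difference was 0.03 ± 0.062, for VCL 0.05 ± 0.053, for ZYX 0.04 ± 0.077 and for TAGLN -0.07 ± 0.17, and none of these 4 passed.

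Within suspended Tpm2.1 cells, the apoptotic against the non-apoptotic fraction differed modestly up to 2 days and widely at 4 days. At 5 hours 4 genes rose and 12 fell in the apoptotic fraction, where 21.4% of all genes passed, at 1 day 2 and 17 (19.3%), at 2 days 2 and 11 (16.6%), and at 4 days 13 and 21 (72.1%). As the mean of the 4 times, 6 rose and 22 fell, where 58.0% passed, 25.6% as higher and 32.4% as lower, without 4 days 7 rose and 18 fell, and with a GC trend removed from each library 9 rose and 14 fell. LPP rose and MYL12B fell at each of the 4 times. LPP was at 62.7, 67.2, 73.7, 79.4, 76.3, 65.6, 143 and 152 CPM in the apoptotic fraction, against 48.6, 48.2, 57.1, 57.0, 56.3, 52.0, 68.1 and 79.5 CPM in the non-apoptotic one. The apoptotic libraries were above the non-apoptotic ones of the same time in each case. LPP was named for passing in this comparison, so this is no separate support. Mitochondrial mRNA was at 2.67 to 5.34% in the apoptotic fraction up to 2 days, against 1.22 to 1.62% in the non-apoptotic one, and its part was not tested. PFN1 and CFL1 fell at 1 and 2 days: PFN1 was at 649, 652, 707 and 782 CPM in the apoptotic fraction, against 829, 905, 1041 and 964 CPM in the non-apoptotic one, and CFL1 at 611, 571, 606 and 607 CPM, against 695, 757, 822 and 745 CPM.

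At 4 days the apoptotic fraction held far less RNA of some genes and more of others. FLNA was at 310 and 305 CPM in apoptotic cells, against 1831 and 1817 CPM in non-apoptotic cells, 5.92-fold lower. TAGLN2 was at 81.7 and 82.6 CPM, against 438 and 402 CPM, CFL1 at 187 and 189 CPM, against 771 and 750 CPM, and ZYX at 58.9 and 45.9 CPM, against 225 and 206 CPM. ACTG1 was at 802 and 785 CPM, against 2412 and 2305 CPM, while ACTB was at 3502 and 3316 CPM, against 3432 and 3381 CPM, so the cytoplasmic actins parted. FERMT2 was at 679 and 675 CPM, against 318 and 326 CPM, ROCK1 at 276 and 277 CPM, against 109 and 121 CPM, and CALD1 at 339 and 368 CPM, against 137 and 138 CPM. In 12 genes the call at 4 days was opposite to a call at an earlier time, and 7 of them (MYL12A, CNN3, PARVA, FERMT2, PFN1 and ARPC2 among them) had fallen at 1 day and rose at 4 days. How many of all genes did so was not counted.

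These 4-day differences moved with the base composition of the transcripts. The 13 genes that rose had a GC content of 36.3 to 58.5% in the longest transcript, with a median of 44.2%, and the 21 that fell had 45.1 to 64.9%, with a median of 57.7%. Across the 37 genes the log2 difference correlated with GC content at a Pearson r of -0.79 and a Spearman correlation of -0.76, and across 17183 genes of the same libraries at -0.68 and -0.73. At 5 hours, 1 day and 2 days the Pearson r of the 37 was 0.52, 0.01 and -0.04. These are correlations across genes that share their libraries. The change of the fraction difference from the earlier times to 4 days passed for 36 genes, 15 rising and 21 falling, where 69.6% of all genes passed. With a GC trend removed from each library 33 passed, 20 rising and 13 falling, and 12 of the 36 changed sign, among them ACTN4 (1.36), MYH9 (1.11) and ZYX (0.64). The falls of LIMK1 (-1.11), FHL2 (-1.11), CNN2 (-1.06) and TAGLN2 (-0.84) and the rises of PFN1 (2.25) and CALD1 (0.78) passed in that fit too. Without the correction these rises were 0.64 for PFN1 and 1.46 for CALD1, so the correction enlarged that of PFN1. PFN1 shares 5.09% of its windows of 75 bases with the pseudogene PFN1P1. Gene detection, mitochondrial mRNA and the nuclear RNAs of these 2 libraries, given above, moved with the same comparison, and their part was not tested.

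**Figure D5:**
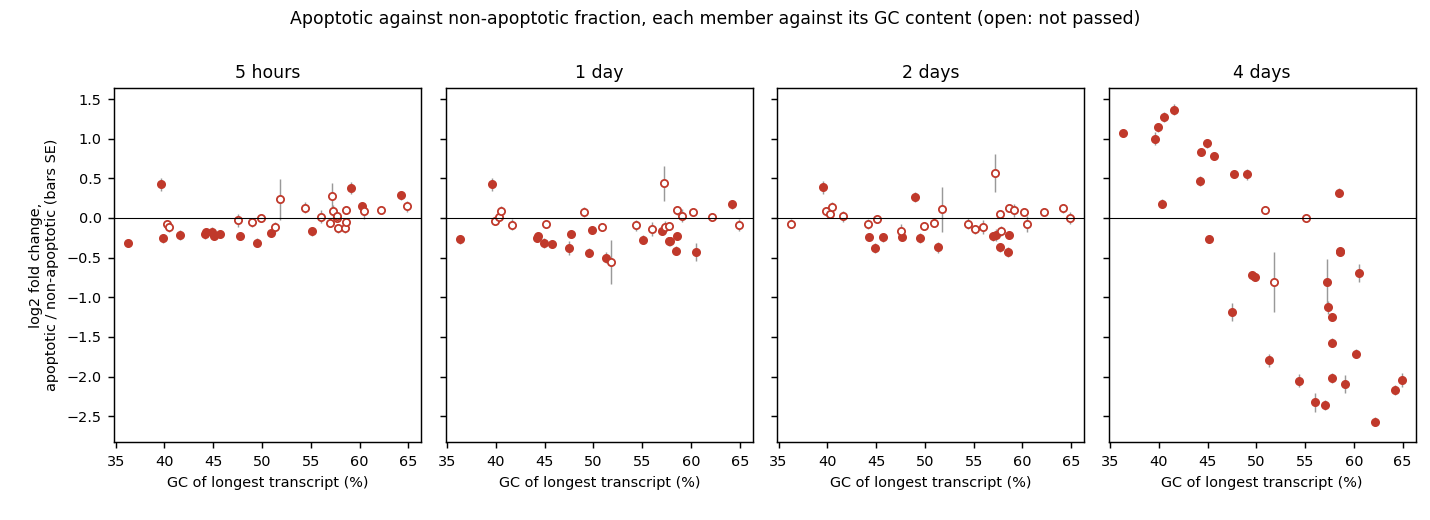
Log2 fold change of each of the 37 genes in the apoptotic against the non-apoptotic fraction of Tpm2.1 cells (with standard errors; open circles did not pass) against the GC content of its longest transcript, one panel for each time in suspension. The points lie close to 0 up to 2 days and spread along a falling line at 4 days, from 1.07 for FERMT2 at 36.3% GC to -2.04 for ZYX at 64.9% GC.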

How the data were processed

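Poly(A) RNA of 28 libraries was sequenced, and the authors deposited a table of raw counts per gene and a table of FPKM. The submitters' processing notes name hg38 and DESeq2 without a role, and the aligner and the counter were not given in the sources used here. Counts were tested with edgeR 4.0.16 (R 4.3.3): TMM scaling, filterByExpr on the groups, one mean for each of 14 groups over all 28 libraries, the quasi-likelihood F test with 14 residual degrees of freedom, and Benjamini-Hochberg adjustment over 17191 genes with a threshold of 0.05. A standard error is the fold change divided by the root of F. The biological coefficient of variation was 4.77%. The test of EV suspension was also run on simulated counts with few changed genes. That setting differs from these data, where 66.3% of all genes passed in that contrast, so it does not test the scaling used here. The deposited FPKM values serve only for levels between genes and in limma 3.58.1 (log2 of FPKM + 1); DESeq2 1.42.0, other scalings, a GC correction, other filters and leaving out each library are alternatives. GC content came from the longest GENCODE transcript. Genes named by rule are the 2 farthest of each role in EV suspension, the 3 highest and 3 lowest past the threshold in the other contrasts, and the 8 smallest p-values of each difference. The genes, lists and rules were chosen with earlier results of these data known; 2 of the 37 are counted but not reported here. Counting error is small for most of these genes at 13043529 or more counts per library. It is larger for ACTA2 (5 to 86 counts) and for TAGLN (35 and 10 counts in the apoptotic libraries of 4 days). Over all genes, replicates differed beyond counting error.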

Additional observations from a re-analysis of the deposited data

Results flagged for a closer look

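For 7 genes the response to suspension differed between the lines with the smallest p-values of the test of that difference (log2 response of non-apoptotic Tpm2.1 minus that of EV cells, edgeR): FERMT2 0.61, MYL12B 0.41, TAGLN2 0.34, ACTN1 0.28, MYH9 -0.39, ROCK2 -0.40 and LPP -0.54. Each of them passed at an adjusted p under 0.05, and Annexin V separation, stated for the suspended Tpm2.1 cells alone, cannot be told apart from the line.

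For 8 genes the difference between apoptotic and non-apoptotic Tpm2.1 cells at 4 days differed from its mean at the earlier 3 times (log2, edgeR). FLNA was at -2.63, PDLIM7 at -2.36, TAGLN2 at -2.20, ZYX at -2.06, LIMK1 at -2.04, PXN at -1.81, CFL1 at -1.79 and FERMT2 at 1.29. With the GC trend removed from each library these values were -0.36 for FLNA, 0.24 for PDLIM7, -0.84 for TAGLN2, 0.64 for ZYX, -1.11 for LIMK1, 0.09 for PXN, -0.32 for CFL1 and 0.34 for FERMT2.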

How the results depend on the processing

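Only calls that passed in the main fit were followed, so a gene that passed under an alternative alone is not counted here. Of 4839 values of these calls, for the 35 genes described under the alternatives, 4572 kept their direction and still passed, 229 no longer passed and 38 changed direction. Total counts without TMM scaling moved the median of all genes to 0.20 in EV suspension, against 0.06 with TMM, to -0.27 in the change of the fraction difference, against -0.09, to -0.08 between 5 hours and 4 days in non-apoptotic Tpm2.1 cells, against 0.04, and to -0.13 between 5 hours and 4 days in EV cells, against -0.0019. With it the split of higher and lower genes was 9 and 11 for the difference between lines, 12 and 12 between suspended lines 14 and 10 for 4 days against 5 hours in EV cells and 14 and 16 in non-apoptotic Tpm2.1 cells, and MYL12A in EV suspension (0.0062), ACTB (-0.0015) and PDLIM5 (-0.0099) in the change of the fraction difference, and CNN3 in the EV time course (-0.0069) changed direction.
The GC correction gave 9 higher and 14 lower genes between fractions, 15 and 6 for the difference between lines and 1 and 32 in EV suspension. It turned, between fractions, ACTB (0.062), ACTN4 (0.093), MYL9 (0.11), PXN (0.020), FERMT2 (-0.15), ZYX (0.0096), PDLIM7 (0.093), DIAPH1 (0.0044) and PFN1 (0.16); between suspended lines, TGFB1I1 (0.032); and in the change of the fraction difference, ACTG1 (0.12), ACTN4 (1.36), MYH9 (1.11), MYL9 (1.41), TAGLN (0.15), TLN1 (0.23), PXN (0.091), ZYX (0.64), LPP (-0.23), PDLIM5 (-0.58) and PDLIM7 (0.24). Leaving 4 days out of the means turned FERMT2 in Tpm2.1 suspension (-0.023); FLNA (0.060), CALD1 (-0.092), PXN (0.099), FERMT2 (-0.22), ZYX (0.021), PDLIM7 (0.19), TGFB1I1 (0.17) and ROCK2 (-0.068) between fractions; ACTG1 (0.014), PDLIM7 (-0.079) and LIMK1 (-0.033) between suspended lines; and PDLIM7 in the difference between lines (-0.027). The cause was not tested.
Past 2-fold, the counts were 7 in EV suspension, 6 in Tpm2.1 suspension, 21 in the change of the fraction difference, 3 in each time course and 0 in attached Tpm2.1 against EV, between fractions, between suspended lines and in the difference between lines. Shares of all genes past 2-fold were not counted. Attached Tpm2.1 against EV had 14 genes, 26 with the 4 libraries alone. Leaving out 1 library at a time gave 30 to 35 genes in EV suspension, 28 to 33 in Tpm2.1 suspension, 8 to 9 attached, 28 to 29 between fractions, 24 to 27 between suspended lines, 14 to 20 for the difference between lines, 34 to 36 for the change of the fraction difference, and 22 to 25 and 28 to 30 in the EV and Tpm2.1 time courses; a lone sample is then assumed to vary like the others.
Replicate numbers did not pair the samples (91 correlations of deviations, -0.0751 to 0.0541), and with the replicate block the counts were 35, 32, 14, 28, 28, 17, 36, 25 and 30 in the order just given for leaving out libraries; only CALD1 in the Tpm2.1 time course lost its call.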
